A study of Saccharomyces cerevisiae with 12 samples.

Results

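Transcript levels of untreated budding yeast lacking ZTA1 (YBR046C, the strain called ∆zta1) were compared with those of the wild type FY834α on 2-colour arrays. The comparison holds 6 of the 12 arrays of the series, namely those whose titles name a control pair, and they make up 3 of its 6 pairs of cultures. The RNAs of a pair went onto 2 arrays in opposite dye orientations, so the 6 arrays carry 3 biological replicates. Both strains grew to exponential phase in rich YPD medium at 30 °C, and no peroxide was added. The other 3 pairs set the same strains against each other after 30 min in 10 mM hydrogen peroxide (H2O2), and they enter here only for the spread between pairs and for a comparison of the strain ratios. How ZTA1 was removed, and whether ∆zta1 is 1 clone, is not given in the sources used here. RNA came from whole cultures, so a lower ratio can stand for fewer cells with a transcript or for less of it per cell.

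ZTA1 encodes the yeast zeta-crystallin, an enzyme that reduces quinones with NADPH. The title of the series presents it as a protein that binds AU-rich elements, short sequences in messenger RNA through which binding proteins change how long a transcript lasts. In exponentially growing yeast most transcripts serve ribosome production and fermentation, while genes for amino acid synthesis, respiration and stress defence are held lower and respond to nutrients.

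Values are log2 ratios of ∆zta1 over wild type, read in that direction for every array. A negative value therefore means a lower level in ∆zta1, and a log2 ratio of 1 is a 2-fold difference. A gene passed when its Benjamini-Hochberg adjusted p was under 0.05 over all 5594 genes, in limma's moderated fit to the pair means. Of these genes 4 were higher and 7 lower in ∆zta1, which is 0.0715% and 0.125% of the genes tested, and the 11 together are 0.197%. All 11 kept 1 sign on all 6 arrays. Of all genes, 131 did so (2.34%), and 204 had an unadjusted p under 0.05 (3.65%).

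ZTA1 itself was low on every array. With ∆zta1 in Cy5 its ratio was -6.34, -4.68 and -6.10 in pairs 1, 2 and 3, and with ∆zta1 in Cy3 it was -5.34, -3.95 and -5.36. The values of pair 2 were the least negative in either dye orientation. The mean of the 3 pairs was -5.30 ± 0.85 (SD, n = 3 pairs, limma adjusted p = 4.9e-05).

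The genes on either side of ZTA1 were higher. FMP23 (YBR047W), which encodes a mitochondrial protein, had ratios of 3.08 and 2.70 on the arrays of pair 1, 1.60 and 1.23 on those of pair 2, and 2.88 and 2.71 on those of pair 3, the array with ∆zta1 in Cy5 first. Pair 2 again stood below the others, as it did for ZTA1 in size. GIP1 (YBR045C), which in meiosis directs the protein phosphatase Glc7, stood at 1.20 and 0.86, at 0.97 and 0.68, and at 1.26 and 0.85 in the same order. Its mean was 0.97 ± 0.13 (SD, n = 3 pairs, limma adjusted p = 4.9e-05), and that of FMP23 was 2.37 ± 0.82 (adjusted p = 0.0030). The call of FMP23 rests on the spread shared with the H2O2 pairs, since in limma's fit of the 3 untreated pairs alone its adjusted p was 0.147. With limma's robust prior it was 0.481, and without pair 2 it was 6.1e-09.

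The genes beyond these neighbours were closer to 0 in pairs 1 and 3. TCM62, which helps to assemble mitochondrial complexes and follows GIP1, had a mean ratio of -0.049, and RPS11B, a ribosomal protein gene that follows FMP23, had -0.020. QDR3, a multidrug transporter gene 1 place further out, stood at 0.019, -0.62 and -0.072 in the 3 pairs, so its mean of -0.23 came from pair 2. REB1, a DNA-binding regulator gene on the other side, stood at 0.038, 0.027 and 0.033. None of these 4 genes passed.

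**Figure D1:**
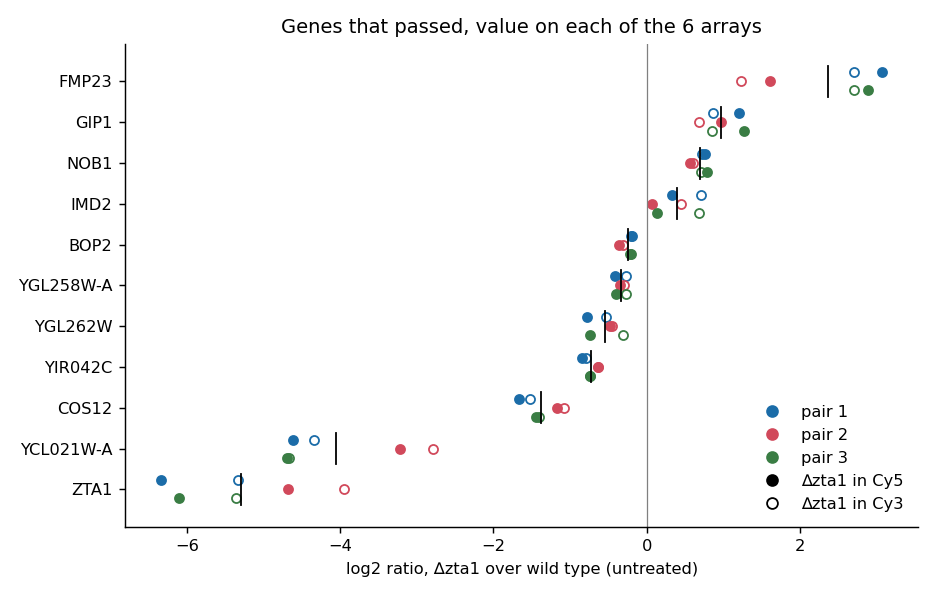
Log2 ratio of ∆zta1 over wild type (horizontal axis) for the 11 genes that passed (vertical axis), with 1 point per untreated array coloured by pair, filled where ∆zta1 was in Cy5 and open where it was in Cy3, and a bar at the mean. Every point of a gene lies on the same side of 0, and the points of pair 2 lie nearest to 0 for ZTA1, YCL021W-A, COS12 and FMP23. By pair mean, pair 2 was the smallest in size for 10 of the 11 genes, BOP2 being the exception.

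Away from ZTA1, NOB1 (YOR056C) was higher, with means that differed by 0.025 between the dye orientations. It encodes the endonuclease that makes the last cut in the RNA of the small ribosomal subunit. Its ratios were 0.76 and 0.72 in pair 1, 0.56 and 0.60 in pair 2, and 0.78 and 0.71 in pair 3. The mean was 0.69 ± 0.093, a 1.61-fold difference (SD, n = 3 pairs, limma adjusted p = 6.0e-05). The other 10 of the 11 measured factors of late small-subunit maturation did not pass, and their means lay close to 0. ENP1 was the highest of them at 0.089 and HRR25, a kinase of the pathway, the lowest at -0.038. The genes on either side of NOB1, VHS3 (0.027) and SGT1 (-0.017), were close to 0 as well.

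IMD2 (YHR216W) encodes an IMP dehydrogenase, the enzyme that commits purine synthesis to guanine nucleotides, and it was 1.32-fold higher. With ∆zta1 in Cy5 its ratios were 0.34, 0.067 and 0.13 in pairs 1, 2 and 3, and with ∆zta1 in Cy3 they were 0.71, 0.45 and 0.69. All were above 0, but the mean was 0.18 in the first orientation and 0.62 in the second, so its size depended on the dye. Averaged over the dyes it was 0.40 ± 0.13 (SD, n = 3 pairs, limma adjusted p = 0.0079, or 0.203 in the fit of the 3 untreated pairs alone and 0.131 without pair 3). IMD3, another gene for the same enzyme, stood at -0.029, -0.086 and -0.030. Of the 16 measured genes of purine nucleotide synthesis only IMD2 passed, and the median of the list was 0.017, or -0.0082 without pair 2. The lowest members were ADE12, adenylosuccinate synthetase, at -0.11 and MTD1 at -0.077. ADE17, of the last steps of the pathway, was the highest after IMD2 at 0.13, with 0.52 in pair 2, and HPT1, which salvages guanine and hypoxanthine, stood at 0.060, 0.29 and -0.046.

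YCL021W-A, an uncharacterised gene, was the lowest after ZTA1. Its ratios were -4.62 and -4.35 in pair 1, -3.22 and -2.78 in pair 2, and -4.69 and -4.67 in pair 3, again with pair 2 the least negative. The mean was -4.06 ± 0.92 (SD, n = 3 pairs, limma adjusted p = 0.00030, or 0.192 with limma's robust prior). In the order of measured genes it lies between KCC4, a bud neck kinase gene (0.029), and LEU2, a gene of leucine synthesis (-0.14). LEU2 stood at 0.063, -0.44 and -0.037 in the 3 pairs and did not pass, nor did any of the 7 genes commonly used as auxotrophic markers.

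COS12 (YGL263W) belongs to a gene family for membrane proteins that lies mostly near chromosome ends, and it had ratios of -1.67 and -1.53, -1.18 and -1.08, and -1.44 and -1.41 in the 3 pairs. The mean was -1.38 ± 0.24, a 2.61-fold difference (SD, n = 3 pairs, limma adjusted p = 8.6e-05). It is the outermost measured gene of the left end of chromosome VII, and 2 more genes of that end passed. YGL262W, the next measured gene, stood at -0.65, -0.47 and -0.53 in the pairs, and YGL258W-A, in place 6, at -0.34, -0.32 and -0.33. Both are uncharacterised, and their adjusted p from limma was 0.00051 and 0.0015. The mean of YGL262W was -0.67 with ∆zta1 in Cy5 and -0.43 with it in Cy3. For YGL258W-A these means were -0.39 and -0.28.

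The genes between and beyond these were uneven. PAU11, of a seripauperin family, and YGL260W lie between YGL262W and YPS5 and had means of -0.0028 and 0.011. YPS5, related to the yapsin proteases, stood at -0.25, -0.14 and -0.25, and VEL1, next to YGL258W-A on its far side, at -0.13, -0.17 and -0.17. Both were below 0 on all 6 arrays and neither passed (limma adjusted p = 0.543 and 0.734). MNT2, a mannosyltransferase gene, and ADH4, an alcohol dehydrogenase gene, followed at -0.025 and 0.0073.

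**Figure D2:**
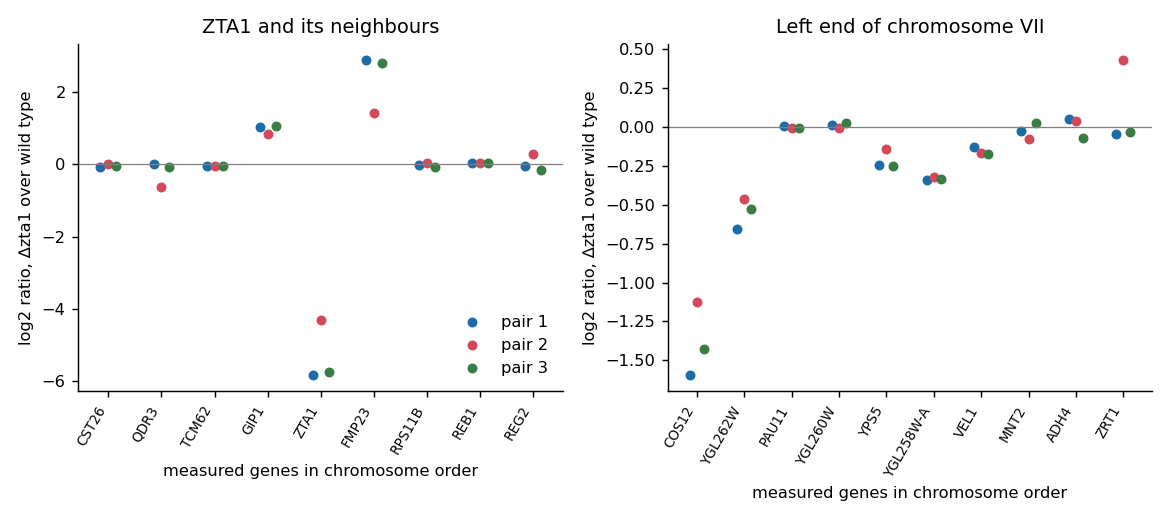
Log2 ratio of ∆zta1 over wild type (vertical axis) for measured genes in chromosome order (horizontal axis), around ZTA1 on the left and at the left end of chromosome VII on the right, with 1 point per untreated pair. GIP1 and FMP23 stand above 0 beside ZTA1. At the end of chromosome VII the low genes COS12 and YGL262W are next to each other. PAU11 and YGL260W, which lie close to 0, and YPS5 (mean -0.21) separate them from YGL258W-A.

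The other COS genes were closer to 0. Of all 11 measured members, COS12 included, 9 had a mean below 0, and the median of the 11 was -0.096, against 0.00052 for all genes. COS1 had the lowest mean after COS12, with -0.47, -0.17 and -0.28 in the 3 pairs, and did not pass (limma adjusted p = 0.125). It passed without pair 2 (-0.38, adjusted p = 0.016), with the pairs weighted by quality (adjusted p = 0.023) and in limma's fit of all 12 arrays that included dye as a term (adjusted p = 0.0065). It did not pass in limma's fit of the 3 untreated pairs alone (adjusted p = 0.712). Nor did it without pair 1 (adjusted p = 0.329) or without pair 3 (adjusted p = 0.738). COS4 had a mean of -0.13, COS5 -0.11 and COS7 -0.11, while COS9 and COS10 lay at 0.0025 and 0.00044. The annotation gives the probes of COS2 and COS3 the same transcript accession, so signals of near-identical COS genes may be mixed.

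YIR042C, an uncharacterised gene, was the third lowest of the genes other than ZTA1. It stood at -0.82, -0.64 and -0.74 in the 3 pairs, and its values in the 2 dye orientations differed by 0.023. The mean was -0.73 ± 0.092 (SD, n = 3 pairs, limma adjusted p = 0.00013). It is the outermost measured gene of the right end of chromosome IX. YPS6, a yapsin gene 2 places further in, stood at -0.22, -0.10 and -0.18 (limma adjusted p = 0.283), and PAU15 between them had a mean of -0.0056.

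BOP2 (YLR267W), whose product has no assigned role here, had the smallest ratio among the genes that passed. Its values were -0.19 and -0.21, -0.37 and -0.31, and -0.20 and -0.22 in the 3 pairs, so here pair 2 was the most negative. The mean was -0.25 ± 0.077 (SD, n = 3 pairs, limma adjusted p = 0.031). The call was not stable, since the adjusted p was 0.343 in the fit of the 3 untreated pairs alone and between 0.083 and 0.196 on leaving out 1 of the 6 pairs at a time.

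Of the 11 genes, 5 lay within 6 measured places of a chromosome end. By the same rule 204 of the 5594 genes (3.65%) did, with the mitochondrial genome counted as a chromosome. The 5 were COS12, YGL262W and YGL258W-A, which share an end, YIR042C, and IMD2, the third measured gene from the right end of chromosome VIII. The limit of 6 places, set with earlier results known, just reaches YGL258W-A, so the share of 5 in 11 is only a description. As a group the 204, some of them mitochondrial, had a median of -0.00091. Of the 204, 33 had an unadjusted p under 0.05, the 5 that passed included. Over all 5594 genes such a p was found for 3.65%. Of the 27 genes that lie within 2 places of a gene that passed and did not pass themselves, 5 had an unadjusted p under 0.05, against the same 3.65% of all genes.

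A mean ratio was measured with a standard error of 0.036 in the median gene and of 0.029 to 0.052 between the 10th and 90th percentile. The smallest ratio that passed was that of BOP2, and 37 genes with a larger mean did not pass. All 37 were below 0, and in 35 of them pair 2 held the most extreme value. Their SD over pairs had a median of 0.49, against 0.053 for all genes. The size of the ratio alone thus did not separate the genes that passed from those that did not.

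**Figure D3:**
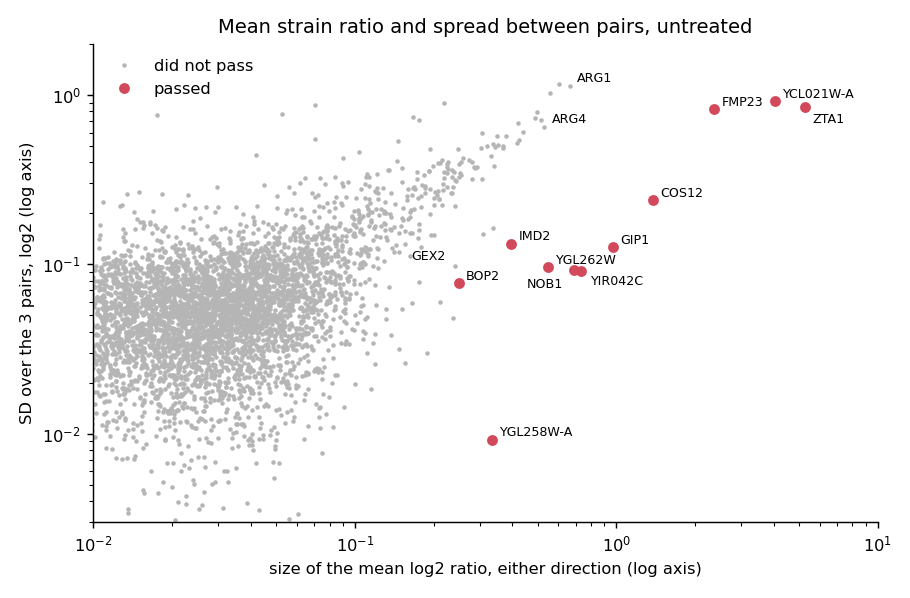
Size of the mean log2 ratio in untreated cells (horizontal log axis) against the SD over the 3 pairs (vertical log axis), with 1 point per gene and the 11 genes that passed in red, leaving out 1270 genes below the lower limit of an axis. To the right of BOP2, the smallest ratio that passed, lie 37 genes that did not pass, with a median SD of 0.49. Among them ARG1 and ARG4 had means of -0.66 and -0.53 with an SD of 1.13 and 0.65.

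The nearest genes below the threshold included several with known roles. In the lower direction, those with the smallest p among genes of 1 sign on all 6 arrays were GEX2, COS1, HSP12, YPS6, YDR541C, YPS5, TIS11, NRM1, YGP1 and VEL1. GEX2, a proton and glutathione exchanger gene, stood at -0.35, -0.19 and -0.18 (mean -0.24 ± 0.098, SD, n = 3 pairs, limma adjusted p = 0.092). It passed with the pairs weighted by quality (adjusted p = 0.042) and in the fit of all arrays (adjusted p = 0.0044). In limma's fit of the 3 untreated pairs alone its adjusted p was 0.657, and without pair 1 it was 0.319. HSP12, a membrane-associated stress protein gene, stood at -0.53, -0.24 and -0.25 (adjusted p = 0.236).

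TIS11, which encodes a protein that binds AU-rich elements and destabilises transcripts of iron-using proteins, stood at -0.11, -0.26 and -0.16 (mean -0.18 ± 0.078, SD, n = 3 pairs, limma adjusted p = 0.556). YGP1, a secreted glycoprotein gene, stood at -0.20, -0.16 and -0.21, and NRM1, a co-repressor of cell cycle genes, at -0.070, -0.15 and -0.17. In the higher direction the corresponding genes were THI7, MIX23, YOL162W, COS111, TIF4631, YGR127W, YFL012W, CGR1, KAP104 and YLL054C. None of their means exceeded 0.11, and the adjusted p of all 10 was 0.999. THI7, the thiamine transporter gene, had 0.089, 0.088 and 0.086 in the pairs, but 0.018 with ∆zta1 in Cy5 and 0.16 with it in Cy3.

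Outside the 11 genes that passed, the 3 pairs had little in common. Across the remaining 5583 genes, which are not independent of each other, Pearson's r was -0.21 between pairs 1 and 2, -0.028 between pairs 1 and 3, and 0.16 between pairs 2 and 3. Over all 5594 genes it was 0.32, 0.75 and 0.48, values carried by the few large ratios. The SD across the remaining genes was 0.063 in pair 1, 0.14 in pair 2 and 0.060 in pair 3. Pair 2 was therefore the widest, and its 2 arrays correlated positively across these genes (r = 0.32), while those of pairs 1 and 3 correlated negatively (r = -0.61 and -0.67). The 2 arrays of a pair hold the same 2 RNA samples.

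In pair 2, 70 of the remaining genes were lower and 13 higher by more than 0.5 on the log2 scale, which is 1.41-fold. Pair 1 had 5 such genes and pair 3 had 2. Over all genes, ratios below -0.5 made up 0.179% in pair 1, 1.32% in pair 2 and 0.107% in pair 3. Ratios beyond 2-fold made up 0.0894%, 0.358% and 0.0894%.

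**Figure D4:**
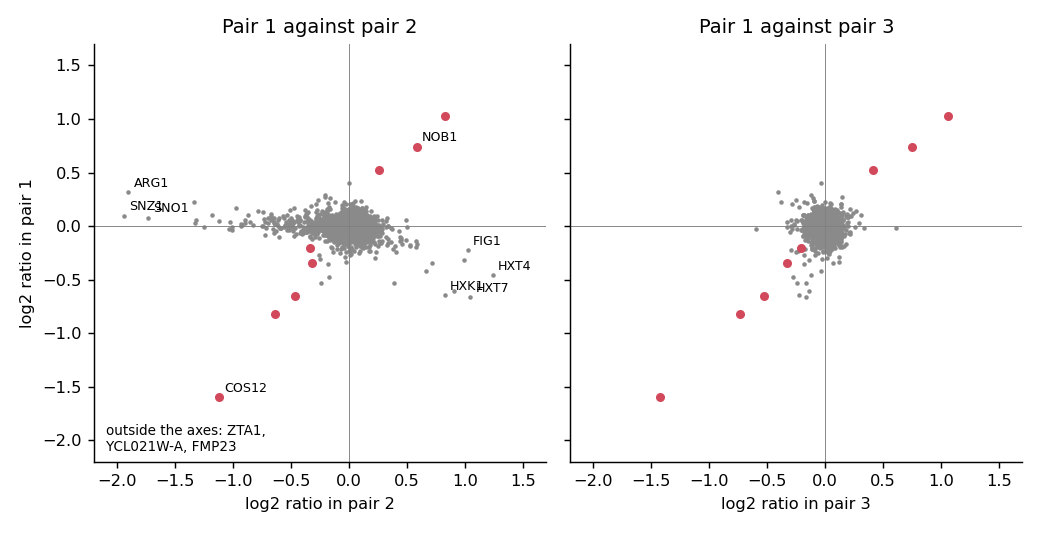
Log2 ratio of ∆zta1 over wild type in pair 1 (vertical axis) against pair 2 (left) and pair 3 (right), with 1 point per gene and the genes that passed in red, except for ZTA1, YCL021W-A and FMP23, which lie outside the axes. The genes that passed lie near the diagonal in both panels, which the rule for passing itself favours. All of them but BOP2 were smallest in size in pair 2. The cloud of pair 2 extends to ARG1, SNZ1 and SNO1 on the left and to HXT4, HXT7 and FIG1 on the right.

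Below the genes that passed, the lowest ratios of pair 2 included those of 2 vitamin B6 genes and several arginine genes, but 40 of the 70 low genes are in none of the amino acid lists below. SNZ1 and SNO1, a pair of neighbouring genes for vitamin B6 synthesis, stood at -1.94 and -1.74 in pair 2. In pair 1 they stood at 0.095 and 0.079 and in pair 3 at 0.033 and -0.016. The remaining 15 genes of the vitamin B6 and thiamine list had means between -0.049 and 0.090. ARG1, argininosuccinate synthase, stood at 0.31, -1.90 and -0.41 in pairs 1, 2 and 3.

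The arginine genes ARG3, ARG4 and ARG7 lay between -1.33 and -1.25 in pair 2, between -0.0073 and 0.060 in pair 1, and between -0.33 and -0.17 in pair 3. GGC1, the mitochondrial carrier of guanine nucleotides, stood at 0.11, -1.19 and -0.18, and ARO5 (YGL117W) at 0.23, -1.34 and -0.38. None of these genes passed (limma adjusted p = 0.999 for each). In pair 2 the values of SNZ1 were -1.98 and -1.91 and those of ARG4 -1.26 and -1.25 in the 2 dye orientations, and without pair 2 the mean of SNZ1 was 0.064 and that of ARG1 was -0.046.

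Most lists of amino acid synthesis were low in pair 2, and the sulfur list was not. The 7 lists for arginine, lysine, histidine, branched-chain, aromatic, threonine with serine, and sulfur amino acids hold 81 measured genes, of which none passed. Their median was 0.0088 in pair 1, -0.34 in pair 2 and -0.062 in pair 3. In pair 2, 30 of the 81 were below -0.5, against 1.32% of all genes, and in pairs 1 and 3 none was. Below 0 were 34 of the 81 in pair 1 and 65 in pair 3, where 2815 and 2882 of the 5594 genes lay below 0. The median over the 3 pairs was -0.12, and -0.025 without pair 2.

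The lists differed in how far they shifted in pair 2. The 8 arginine genes had a median of -1.14 there, the 7 histidine genes -0.52, the 14 aromatic genes -0.43 and the 11 branched-chain genes -0.34. Lysine genes stood at -0.29, genes of threonine and serine at -0.13, and the 21 sulfur genes at -0.0026. Within the histidine list HIS4 had -0.65 and HIS5 -0.86 in pair 2, while HIS3 had 0.038 and HIS6 0.12. ARO3, which opens aromatic amino acid synthesis, had -0.87 and HOM3, aspartate kinase, had -0.83. Within the sulfur list MET13 and MET16 were low in pair 2 (-0.64 and -0.60), and MMP1, a permease gene, was high (0.53).

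Some genes of glucose uptake were below 0 in pair 1 and above 0 in pair 2. HXT4, a hexose transporter gene, stood at -0.62 and -0.29 on the arrays of pair 1, at 1.23 and 1.25 on those of pair 2, and at -0.26 and 0.0091 on those of pair 3. HXT7, a high-affinity transporter gene, stood at -0.66, 1.04 and -0.17 as pair means, and MTH1, a regulator of transporter genes, at -0.32, 0.99 and -0.14. HXT6 (-0.60, 0.90 and -0.14) and HXK1, hexokinase 1 (-0.65, 0.82 and -0.23), were chosen after their values were seen and showed the same signs. HXT6 and HXT7 are near-identical genes, so their probes may share signal. Of the 21 measured genes of hexose transport 5 were above 0.5 in pair 2, against 0.286% of all genes, and 7 were below 0 there. In pair 1, 2 of the 21 were below -0.5, against 0.179% of all genes. The list had medians of -0.0080, 0.087 and -0.0093 in the 3 pairs. None of its genes passed, and its median over the pairs was 0.048, or 0.0017 without pair 2.

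FIG1, a membrane protein gene induced during mating, was the third gene higher by more than 2-fold in pair 2 alone. It stood at -0.22, 1.02 and -0.30 in the 3 pairs. The 5 measured genes specific to alpha cells, the mating type of the wild type by its name, had medians of -0.13, 0.14 and -0.016. SAG1, alpha-agglutinin, stood at 0.49 in pair 2 and MF(ALPHA)2, a pheromone gene, at 0.44. All 5 lay below 0 in pair 1 and above 0 in pair 2, and none passed. The 7 genes specific to a cells had means between -0.014 and 0.020. The arrays give ratios only, so whether either set was expressed could not be read from them.

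**Figure D5:**
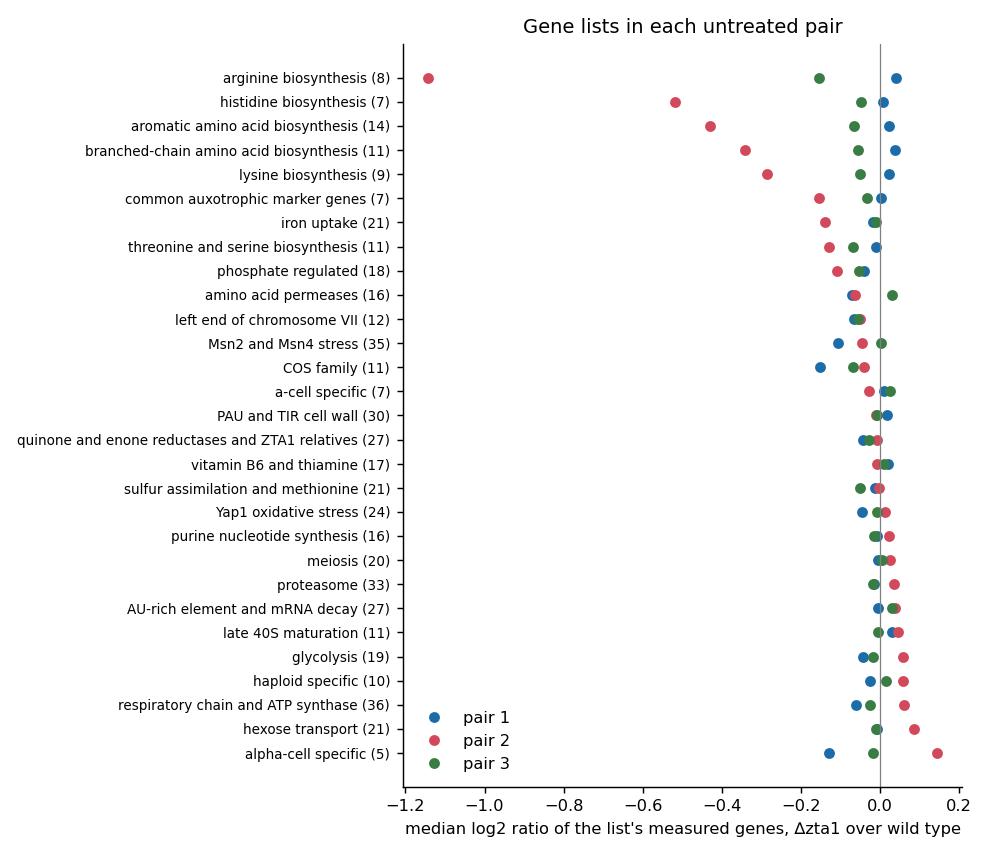
Median log2 ratio of ∆zta1 over wild type (horizontal axis) for 29 gene lists with the number of measured genes in brackets (vertical axis), with 1 point per untreated pair. Pair 2 has a median of -1.14 for arginine genes and -0.52 for histidine genes but -0.0026 for sulfur genes, while pairs 1 and 3 lie between -0.15 and 0.041 for every list.

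No stress or defence gene passed. Of 35 measured stress genes under the regulators Msn2 and Msn4, 30 had a mean below 0, as did 2762 of all 5594 genes. In pairs 1, 2 and 3, 30, 21 and 16 of the 35 were below 0. In pair 1, 3 of them were below -0.5, against 0.179% of all genes. Their median was -0.11 in pair 1, -0.044 in pair 2 and 0.0034 in pair 3, and HSP12 and YGP1 had the lowest means. GPH1, glycogen phosphorylase (chosen after its values were seen), stood at -0.53, 0.39 and -0.16. The 24 oxidative stress genes under Yap1 had medians of -0.045, 0.012 and -0.0074. ATR1, a transporter gene, had the lowest mean of that list at -0.28, with -0.72 in pair 2. AHP1, a peroxiredoxin gene, followed at -0.11.

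Of 27 measured relatives of ZTA1 and other quinone or enone reductases none passed, and 20 were below 0, with a median of -0.014, or -0.035 without pair 2. ADH5, an alcohol dehydrogenase gene, had the lowest mean, with 0.055, -0.90 and -0.26 in the pairs. Among 27 measured genes for proteins that degrade messenger RNA or bind AU-rich elements none passed, and the median was 0.011. TIS11 was their lowest member, followed by its relative CTH1 at -0.073, and NMD2, of nonsense-mediated decay, was the highest at 0.075.

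Genes of iron uptake and of phosphate supply lay below 0 in most cases, without any that passed. Of 21 iron genes 19 had a mean below 0, as did 2762 of all 5594 genes. In pairs 1, 2 and 3, 13, 20 and 12 of the 21 were below 0, with medians of -0.017, -0.14 and -0.0093. The siderophore transporter genes SIT1 and ENB1 had the lowest means, with -0.47 and -0.46 in pair 2 and between -0.091 and -0.070 in the other pairs. FRE1 was lower still in pair 2 but not in the others, at 0.10, -0.54 and 0.31. Of 18 phosphate genes 17 had a mean below 0. In the pairs 16, 16 and 15 of them were below 0, with medians of -0.039, -0.11 and -0.052. PHO89, a phosphate transporter gene, had -0.27, -0.26 and -0.18 (limma adjusted p = 0.999).

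Large complexes and central metabolism were close to 0. No gene passed among 33 of the proteasome (median 0.0045), 36 of the respiratory chain and ATP synthase (-0.015), 19 of glycolysis (-0.00073), 16 amino acid permeases (-0.028) or 30 of the PAU and TIR cell wall families (-0.00022). The pairs differed in sign here too. Of the 36 respiratory genes 31 lay below 0 in pair 1 and 30 in pair 3, and 5 did in pair 2. Of the 19 glycolysis genes 14, 2 and 12 lay below 0 in pairs 1, 2 and 3. Among 20 meiosis genes only GIP1 passed, and none of 10 haploid-specific genes did (median 0.028).

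The strain ratios under H2O2 pointed the same way for all 11 genes, and 9 of them were smaller in size there. The 11 were chosen by their untreated ratios, which favours smaller sizes under H2O2, so the count of 9 is only a description. After H2O2, NOB1 had ratios of 0.75, 0.71 and 0.71, which differed from untreated cells by 0.033 (95% interval -0.087 to 0.15). IMD2 stood at 0.42 in each of them, with a difference of 0.023 (95% interval -0.12 to 0.17). GIP1 stood at 0.60, 0.55 and 0.70, a difference of -0.36 (95% interval -0.51 to -0.20). YGL262W stood at -0.34, -0.31 and -0.20, a difference of 0.27 (95% interval 0.13 to 0.40).

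No difference between the treatments passed in limma's test over all genes (adjusted p = 0.999 for each of the 11), and 71 genes had an unadjusted p under 0.05. The intervals above are not adjusted for the number of genes. BOP2, YGL262W and YGL258W-A did not pass under H2O2, where 0.215% of the genes did, and were thus not shown to be particular to untreated cells. Without untreated pair 2 the difference passed for 3 genes, ZTA1, FMP23 and GIP1, whose untreated ratios were then -5.79, 2.84 and 1.05. Of the genes marked in pair 2, SNZ1 had a mean of 0.064 under H2O2 and HXT4 had -0.20. ARG1 stood at 0.30, -0.19 and -0.46 in the 3 H2O2 pairs.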

How the data were processed

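RNA of ∆zta1 and wild type was labelled with Cy5 or Cy3 and hybridised together, per the labels. The authors deposited 1 log2 ratio per probe and array. Limma is the only program in the submitters' processing notes, and background correction, normalisation and log base are not given in the sources used here. The values were read as log2, limma's convention, and as ∆zta1 over wild type from the titles and from ZTA1. Intensities were not used here, so signal over background is unknown and the number of arrays limits precision.

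Of 6256 probes 5620 have 1 gene, none several and 636 none. All 5620 matched RefSeq (assembly R64, used for names and gene order). Probes were averaged to 5594 genes, which concerned 25 genes. The first array of replicate 3 is described as replicate 2 and was paired by title. Both arrays of a pair were averaged, and limma 3.58.1 (R 4.3.3) was fitted to the 6 resulting values, estimating the mean of either treatment and 1 common spread (4 residual degrees of freedom). The fit was also run on simulated data with independent normal noise for each gene and pair. Genes that shift together, as in pair 2, were not simulated, and no result above rests on that run. Untreated and H2O2 pairs of the same number did not deviate together (r = -0.014, 0.031 and -0.27), so no pairing across treatments was used.

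The gene lists, from textbook knowledge, and the rules were chosen with earlier results of these data known. List medians and counts are descriptions without a test. Named are ZTA1, genes that passed, up to 10 per direction below the threshold with 1 sign on 6 arrays, up to 10 per direction beyond 2-fold in a pair, measured neighbours up to 2 places away, and members of lists (all up to 12 genes, otherwise up to 4 per direction). Others are said to be chosen after their values were seen or set beside a result.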

Additional observations from a re-analysis of the deposited data

Results flagged for a closer look

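A pair of probes without a gene in the platform annotation, which the comparison by gene leaves out, passed when every probe was tested on its own. Probe A_06_P1129 was higher in ∆zta1, with ratios of 0.37, 0.25 and 0.28 in the 3 untreated pairs (mean 0.30 ± 0.065, SD, n = 3 pairs, limma adjusted p = 0.0088) and a mean of 0.34 under H2O2. Probe A_06_P4020 was lower, with -0.46, -0.28 and -0.50 (mean -0.41 ± 0.12, SD, n = 3 pairs, limma adjusted p = 0.0088) and a mean of -0.31 under H2O2. Both had 1 sign on all 12 arrays, and what they measure is not known here. Groups of 3 pairs are too small for a test, gene by gene, of single pairs that stand apart. By its spread across the genes that did not pass, untreated pair 2 did stand apart (SD 0.14, against 0.063 in pair 1 and 0.060 in pair 3). No named gene lay on opposite sides of 0 in all pairs of either treatment.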

How the results depend on the processing

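The counts of 4 higher and 7 lower genes changed most when only 1 dye orientation was used. With ∆zta1 in Cy5 329 genes were higher and 577 lower, and with it in Cy3 339 were higher and 223 lower. All 11 genes were among them, and 323 of the 339 genes called in both orientations had opposite signs. The fit of the 3 untreated pairs alone called 2 higher genes. With a replicate block across treatments 4 were higher and 6 lower, BOP2 having an adjusted p of 0.109. Numbers were not shown to pair samples. Without single pairs 3 to 4 genes were higher and 6 to 8 lower, and 0 to 3 differed between treatments, against 0 with all pairs. Of the 11 genes 7 passed under all 16 alternatives. Pair weights turned HXT4 (-0.017), HXT7 (-0.14) and FIG1 (-0.065). Leaving out single pairs turned HXT4 (-0.29 to 0.56), HXT7 (-0.42 to 0.44), FIG1 (-0.26 to 0.40), SNZ1 (-0.96 to 0.064) and SNO1 (-0.88 to 0.032), each without pair 2. Array centring or scaling, robust priors and single probes left the counts of higher and lower genes within 1.5 times.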
